A study of Mus musculus with 9 samples.

Results

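The neurotransmitter receptor genes are the mouse genes whose symbols begin with the stems of the GABA-A (Gabra to Gabrr), glycine (Glra, Glrb), AMPA (Gria), kainate (Grik), NMDA (Grin1 to Grin3), metabotropic glutamate (Grm), nicotinic (Chrna to Chrng), muscarinic (Chrm), serotonin (Htr1 to Htr7) and dopamine (Drd1 to Drd5) receptors. They were chosen by name and by no measured value, and number 88 of the 23004 gene symbols in the tables. The families hold 19 GABA-A, 5 glycine, 4 AMPA, 5 kainate, 7 NMDA, 8 metabotropic glutamate, 16 nicotinic, 5 muscarinic, 14 serotonin and 5 dopamine receptor genes. RNA was sequenced from medullary thymic epithelial cells (mTEC) sorted from pooled thymi of B6 mice, 4 weeks old per the methods, in 9 libraries with 1 library per group. The cells were gated as CD45- and Ly51- and split by MHC class II (I-A/E) into mTEChi and mTEClo. In the Aire pair, WT mTEChi were set against mTEChi of genotype Aire-/-, from the strain B6.129S2-Aire tm1.1Doi, in which Aire is disrupted in the germ line. In the mTEClo pair, mTEChi and mTEClo of WT mice were compared, which per the methods were sorted from a shared pool of thymi. For the actinomycin D series, WT mTEChi were kept with 1 µM of this inhibitor of transcription and sampled at 0, 1.5, 3, 6 and 12 h, giving 5 libraries. A TruSeq kit served for both pairs and for 0 h, whereas SMARTer amplification and a Nextera kit were used for the treated cells, so a difference from 0 h can come from kit or treatment and these cannot be told apart.

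Neurotransmitter receptors carry the signal of a released transmitter across the membrane of the receiving cell. GABA-A, glycine and nicotinic receptors and the Htr3 serotonin receptors are channels of several subunits, AMPA, kainate and NMDA receptors are glutamate-gated channels, and the metabotropic glutamate, muscarinic, dopamine and remaining serotonin receptors act through G proteins. Most are known from neurons and muscle. Aire is a transcriptional regulator of mTEChi through which these cells transcribe many genes of other tissues, and developing T cells that recognise the products can then be removed. The subunits of the muscle acetylcholine receptor belong here, since that receptor is the main target of autoantibodies in myasthenia gravis.

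Totals ranged from 74161592 to 195444567 reads in the 5 untreated libraries and from 1746825 to 21124165 reads in the 4 treated ones. Every member had a read in the mTEChi library of the mTEClo pair, in the 0 h library and in mTEClo. The number of members without a read was 1 in WT of the Aire pair and 14 in the Aire-KO-labelled library. In the treated cells it was 1 after 1.5 h, 25 after 3 h, 53 after 6 h and 47 after 12 h. Aire itself stood at 29191 normalised counts in WT and was 2.99-fold higher, at 87380, in the Aire-KO-labelled library, and since reads were counted over the whole transcript this does not check the label. The epithelial markers Epcam, Krt8, Krt18, Cldn3 and Cldn4 summed to between 3908 and 6466 CPM (reads per library total of 1000000) over the 9 libraries, and 8 of 10 mTEChi markers were at least 3-fold higher in mTEChi than in mTEClo. Reads of overlapping genes cannot be told apart because the counting used no strand. Of 87 members placed in the annotation of build mm9, 20 shared exon sequence with another gene and 7 shared more than 10% of it. The largest shares among the genes described here were 66.9% for Htr1b with D430036J16Rik, 13.5% for Grin1 with E130003G02Rik and 11.0% for Grm6 with Gm12660, so that these 3 are uncertain.

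In untreated WT mTEChi the receptor genes were mostly low, with a few at the level of ordinary expressed genes. Levels between genes were compared as CPM per kb of exon (RPKM). In the 3 untreated WT libraries, 28, 32 and 35 of 88 members reached 1 RPKM, against 71.9%, 73.2% and 72.2% of all entries. The highest member was Htr7, a serotonin receptor coupled to G proteins that raise cyclic AMP, at 33.2 RPKM in the Aire pair, 54.3 in the mTEClo pair and 29.5 at 0 h (mean 39.0 ± 13.4, SD, n = 3). Grin2c, an NMDA-type glutamate receptor subunit known from the cerebellum, was at 20.8, 29.4 and 41.3 RPKM in the same order (30.5 ± 10.3, SD, n = 3). Gabrp, the pi subunit of the GABA-A receptor and known from epithelia outside the brain, was at 29.9, 11.8 and 16.0 RPKM (19.2 ± 9.47, SD, n = 3). The 3 libraries did not rank these genes alike, and their ranges overlapped. Htr7, Grin2c and Gabrp together took 52.3%, 49.5% and 49.5% of all reads of the 88 members in these libraries.

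**Figure D1:**
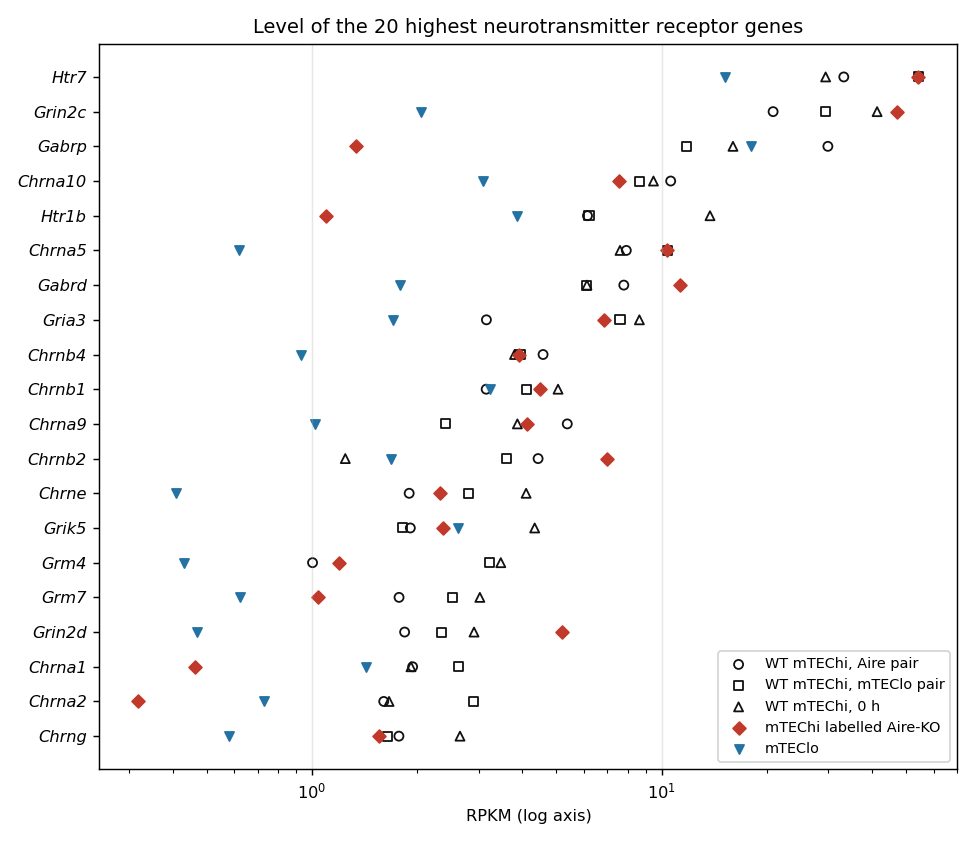
Level of the 20 highest members in RPKM (log axis), 1 row per gene, with 1 point for each of the 5 untreated libraries and no error bars since each point is 1 library. Htr7, Grin2c and Gabrp lead in WT mTEChi, and the mTEClo point lies left of the WT points for most genes, but not for Gabrp, Grik5, Chrnb1 or Chrnb2, and the red point of Gabrp, at 1.33 RPKM, lies far left of its WT points.

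The next genes in order were Chrna10 (9.57 ± 1.00 RPKM), Htr1b (8.70 ± 4.38), Chrna5 (8.64 ± 1.52), Gabrd (6.67 ± 0.973), Gria3 (6.47 ± 2.91), Chrnb4 (4.10 ± 0.418), Chrnb1 (4.10 ± 0.953) and Chrna9 (3.88 ± 1.48), each a mean with SD over n = 3 libraries. Neighbours in this order differed by less than the larger of their SDs, except Chrna5 and Gabrd. Of these 8, 5 are nicotinic subunits. Chrna9 and Chrna10 form the receptor of cochlear hair cells, and Chrna5 and Chrnb4 belong to the ganglionic type, in which Chrna5 is an accessory subunit. Chrnb1 is the beta subunit of the muscle receptor, Gabrd the delta subunit of GABA-A receptors outside synapses, and Gria3 an AMPA receptor subunit. The median member lay at 0.312, 0.559 and 0.547 RPKM in the 3 libraries. As a comparison chosen after values were seen, 1099 olfactory receptor entries, genes of sensory neurons, had an upper quartile of 0.0219, 0.0779 and 0.0819 RPKM there, and 87, 85 and 83 of the 88 members lay above it.

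The sequence upstream of the 3 highest members is shown because these 3 carry about as many reads as the rest together, and because Gabrp stands apart from Htr7 and Grin2c in both contrasts that follow. The windows are the 250 bases before the RefSeq start on the strand of the gene, from assembly GRCm38.p6 (the reads were mapped to mm9), with each CG in capitals.
Htr7: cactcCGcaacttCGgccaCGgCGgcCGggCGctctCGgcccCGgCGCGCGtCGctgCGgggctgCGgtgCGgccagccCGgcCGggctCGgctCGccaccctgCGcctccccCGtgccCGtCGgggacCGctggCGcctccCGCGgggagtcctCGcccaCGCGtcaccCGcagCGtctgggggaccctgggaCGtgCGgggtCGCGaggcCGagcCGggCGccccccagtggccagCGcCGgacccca
Grin2c: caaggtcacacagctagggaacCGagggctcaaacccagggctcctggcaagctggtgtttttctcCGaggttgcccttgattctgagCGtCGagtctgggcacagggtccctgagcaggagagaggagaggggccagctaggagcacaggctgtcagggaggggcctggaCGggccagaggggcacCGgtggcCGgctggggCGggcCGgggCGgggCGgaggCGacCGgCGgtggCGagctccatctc
Gabrp: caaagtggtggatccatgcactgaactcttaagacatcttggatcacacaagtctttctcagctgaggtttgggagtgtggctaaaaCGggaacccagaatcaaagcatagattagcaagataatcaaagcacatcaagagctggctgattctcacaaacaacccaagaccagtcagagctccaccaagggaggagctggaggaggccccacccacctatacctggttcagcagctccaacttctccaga
They lie on the minus strand at chr19:36057361-36057610, chr11:115267244-115267493 and chr11:33578958-33579207. The Htr7 window held 41 CG, the Grin2c window 15 and the Gabrp window 1. In the windows of 300 bases that run 50 bases past the start, the counts were 46, 22 and 4, and 43.9% of all 27025 windows held 10 or more. The motif TATAAA, on either strand, was in none of these 3 and in 14.2% of all windows. RefSeq windows matched 66 of the 88 members, fewer than 80%, which makes a comparison of base composition over the families void, and none is given. A link between CG count and fold cannot be read from 3 chosen genes and was not tested.

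Neurotransmitter receptor genes were for the larger part higher in WT mTEChi than in the Aire-KO-labelled library. Summed counts reached the minimum of 10 in 87 members, and 46 of these exceeded 3-fold in favour of WT, 3 at least 3-fold lower, 26 within 2-fold (65.5% of all entries) and 12 in between. At least 3-fold higher were 21.1% of all 26761 entries measured and at least 3-fold lower 2.03%, against 52.9% and 3.45% of the measured members. The median fold was 3.70 over the members and 1.02 over all entries. Gabra6, with 6 reads against 0, did not reach the minimum. With 1 library on each side, no test was made on the pair, and the 95% intervals of folds cover counting error only. They take reads as independent, which reads from both ends of a fragment are not, so they are too narrow. The interval lay wholly past 3-fold for 36 of the 46 higher members and 2 of the 3 lower ones. The share varied with level, over the members and over all entries. Between 10 and 100 summed counts, 25 of 33 members and 61.0% of all entries passed 3-fold in favour of WT. Between 100 and 1000 counts it was 19 of 37 members and 40.1% of entries, and from 1000 counts 2 of 17 members and 7.05% of entries.

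**Figure D2:**
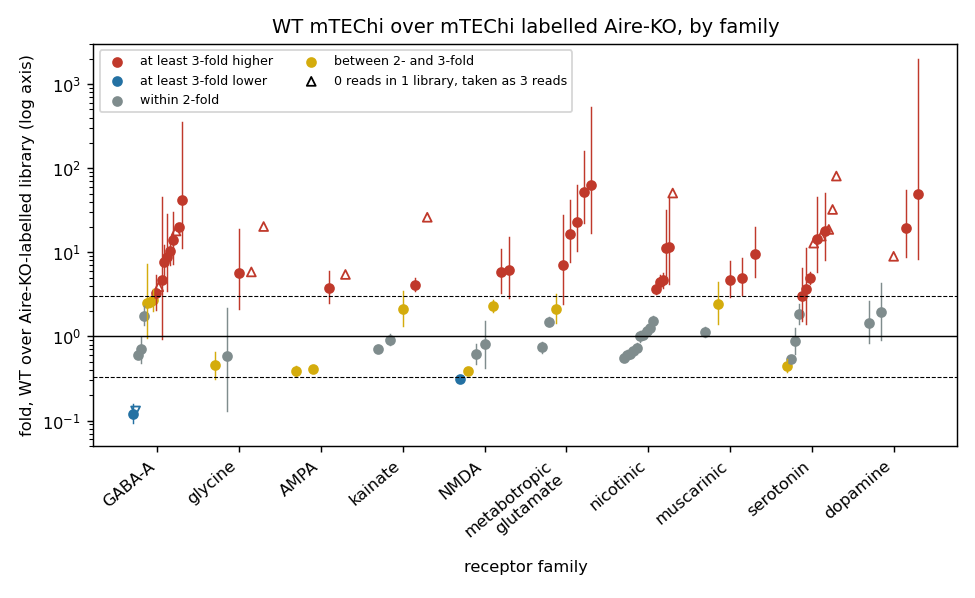
Fold of normalised counts in WT over the Aire-KO-labelled library (log axis) for the 87 measured members by receptor family; points are colored by class, vertical lines are exact 95% counting intervals, dashed lines mark 3-fold and open triangles a library at 0 reads taken as 3 reads. Serotonin, dopamine, glycine and metabotropic glutamate receptors reach far above 3-fold, while 10 of the 16 nicotinic genes sit within 2-fold.

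The families differed in how many members were higher. Serotonin receptors passed 3-fold in favour of WT in 10 of 14, with a median of 8.90-fold, and among metabotropic glutamate receptors 5 of 8, with a median of 11.7-fold. GABA-A receptors gave 10 of 18 higher and 2 lower, dopamine receptors 3 of 5, glycine receptors 3 of 5 and muscarinic receptors 3 of 5. The counts were 2 of 4 for AMPA and 2 of 5 for kainate receptors. In the NMDA family 2 of 7 were higher and 1 lower, with a median of 0.809. Nicotinic receptors had 6 of 16 higher, none lower and a median of 1.20-fold. Of all measured entries, 21.1% were at least 3-fold higher. The 13 members at 0 reads in the Aire-KO-labelled library could only count as higher. Among them were Htr1a, Htr2a, Htr3a, Htr5a and Htr5b, so the serotonin count and median rest partly on them. The others lay in the nicotinic, GABA-A, glycine, AMPA, kainate and dopamine families. The differences between families were not tested.

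Several members had reads in WT and none, or next to none, in the Aire-KO-labelled library, which held 13 measured members at 0 reads. Of all measured entries, 3.78% had 0 reads there. Members at 0 reads reached the minimum of 10 counts through WT alone. With 0 taken as 3 reads they could only be counted among the 46 higher members. The deepest of these was Htr3a, the essential subunit of the serotonin-gated channel, with 207 reads in WT and 0 in the Aire-KO-labelled library. It was at 1.05, 1.87 and 1.67 RPKM in the 3 untreated WT libraries and at 0.584 in mTEClo. Taken against 3 reads, Htr3a was 80.7-fold higher in WT, with a 95% counting interval from 65.0-fold. Chrna6, a nicotinic subunit of dopamine neurons, had 130 reads against 0 (50.7-fold against 3 reads, interval from 40.6). Its levels were 0.469, 0.626 and 0.574 RPKM in the WT libraries and 0.235 in mTEClo. For both genes mTEClo lay below all 3 libraries of WT mTEChi. Chrna6 in mTEClo was under the upper quartile of the olfactory receptor entries there, 0.349 RPKM.

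The serotonin receptors Htr5b (83 reads against 0, 32.3-fold against 3 reads, interval from 25.7) and Htr5a (48 against 0, 18.7-fold, from 14.6) gave the same picture in the pair. Htr5b was at 0.434, 0.796 and 0.537 RPKM in the WT libraries, whereas Htr5a was at 0.0902, 0.0840 and 0.00787, so that only the first stood clear of the olfactory receptor level at 0 h. Grik1, a kainate receptor subunit, had 67 reads against 0 (26.1-fold against 3 reads, interval from 20.7). Glra1, the alpha subunit of the glycine receptor of spinal cord, had 52 against 0 (20.3-fold, from 15.9). Among the metabotropic glutamate receptors, Grm2 had 223 reads against 5 (52.1-fold, interval 22.0 to 162) and Grm6, the receptor of retinal bipolar cells, 118 against 6 (23.0-fold, 10.3 to 63.9). The dopamine receptor Drd4 had 101 reads against 6 (19.7-fold, 8.73 to 54.9), and the GABA-A theta subunit Gabrq 72 against 2 (42.1-fold, 11.2 to 354). The width of these intervals comes from the few reads in the Aire-KO-labelled library.

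Gabrp was the one abundant member among those with the largest folds. It had 9357 reads in WT and 552 in the Aire-KO-labelled library, a 19.8-fold difference (18.2 to 21.6). Its level was 1.33 RPKM in the Aire-KO-labelled library, against 11.8 to 29.9 in the untreated WT mTEChi libraries and 18.0 in mTEClo. Chrna1, the alpha subunit of the muscle acetylcholine receptor, which carries the binding site, was 3.70-fold higher in WT (3.21 to 4.28, 794 reads against 251). In contrast, the other muscle subunits were not higher in WT. Chrnb1 was 1.61-fold lower (1.46 to 1.77), Chrnd, the delta subunit, 1.65-fold lower (1.46 to 1.85), and Chrne, the adult epsilon subunit, 1.38-fold lower (1.19 to 1.61). Chrng, the fetal gamma subunit, stood at 1.01-fold (0.866 to 1.17). With equal library totals in place of the deposited scaling, all log2 folds of this pair were higher by 0.23, which leaves Chrnb1, Chrnd and Chrne below 1-fold.

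Some of the most abundant members were lower in WT. Grin2c had 9735 reads in WT and 29212 in the Aire-KO-labelled library (2.57-fold lower in WT, 2.51 to 2.63). Grin2d, another NMDA subunit, had 770 against 2878 (3.20-fold lower, 2.95 to 3.47). Gabra4, a GABA-A alpha subunit, had 69 against 667 (8.27-fold lower, 6.45 to 10.8). The third gene past 3-fold in this direction, Gabrg1, had 0 reads against 27 and is named after its values were seen. Taken against 3 reads it was 7.70-fold lower, with an interval from 5.84. The untreated WT mTEChi libraries outside the pair held 33 and 15 reads of Gabrg1. Its level there was 0.0386 and 0.0345 RPKM, against 0.0448 in the Aire-KO-labelled library. The AMPA subunits Gria3 and Gria1 were 2.45-fold (2.31 to 2.60) and 2.60-fold (2.26 to 2.99) lower, and Htr7 1.85-fold (1.80 to 1.89). Chrnb2, a subunit of the main nicotinic receptor of the brain, was 1.79-fold lower (1.70 to 1.88), and the leading genes of the kainate, muscarinic and metabotropic glutamate families stayed within 2-fold, at 0.713 for Grik5, 1.12 for Chrm4 and 1.5 for Grm7. Glrb, the beta subunit of the glycine receptor and the leading gene of that family, stood at 0.453. Under equal totals, Grin2d was no longer past 3-fold, and the count of lower members was 2.

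To set the Aire-KO-labelled library against the spread between WT libraries, all 3 untreated WT mTEChi libraries were compared with it by edgeR's quasi-likelihood test over 23916 entries, with Benjamini-Hochberg adjustment. This fit shares the WT library of the pair and assumes that the lone library varies like the WT ones, which were deposited for different comparisons. It called 23 of the 88 members as higher in WT and 0 as lower, where 8.64% of all entries were called higher and 0.0878% lower. At an unadjusted p under 0.05 by edgeR there were 50 members and 5065 of the 23916 entries. DESeq2 called 39 members, all of them higher in WT (15.1% of all entries). The called genes included 7 of the serotonin and dopamine families of G protein type (Htr1a, Htr1d, Htr2a, Htr5b, Drd2, Drd3, Drd4) with the channel subunit Htr3a, the metabotropic glutamate receptors Grm2, Grm5 and Grm6, the GABA-A subunits Gabra5, Gabrp, Gabrq and Gabrr1, 3 nicotinic subunits (Chrna4, Chrna6, Chrna7), Glra1 and Grik1. The lowest adjusted p was 0.00894, for Htr3a, and the range over its alternatives was 1.49e-05 to 0.0105.

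The size of the called changes can be read where the Aire-KO-labelled library held reads. Gabrp was higher by 3.68 on the log2 scale (SE 0.80, adjusted p = 0.0337 by edgeR), and higher in all 3 WT libraries. Grm2 was higher by 6.07 (SE 0.94, adjusted p = 0.0124) and Drd4 by 4.59 (SE 0.85, adjusted p = 0.0202). Gabra5, a GABA-A alpha subunit of hippocampus, was higher by 3.95 (SE 0.89, adjusted p = 0.0363), and Gabrr1, a subunit of the retinal type, by 3.46 (SE 0.69, adjusted p = 0.0251). Chrna4 at 2.77 (adjusted p = 0.0439) and Chrna7 at 3.84 (adjusted p = 0.0441), both subunits of neuronal nicotinic receptors, were the nearest to the threshold, and both were lost with another scaling. Chrna1 (2.03, adjusted p = 0.0750) and Htr1b (2.78, adjusted p = 0.0625) missed it.

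The members lower in WT in the pair did not pass this test. Gabra4 gave a log2 difference of -2.08 (SE 0.74, adjusted p = 0.151 by edgeR) and Grin2d of -1.33 (SE 0.46, adjusted p = 0.137). Gabra4 was at 0.175, 0.652 and 0.208 RPKM in the WT libraries and at 1.28 in the Aire-KO-labelled library, above all 3. Grin2d was at 1.84, 2.35 and 2.91 RPKM against 5.20, again above all 3. Grin2c, at 47.3 RPKM in the Aire-KO-labelled library, lay above the highest WT library by less than the WT libraries differed among themselves and gave -0.83 (SE 0.49, adjusted p = 0.442), and Htr7 at 54.2 RPKM did not exceed the WT library of the mTEClo pair (-0.66, SE 0.51, adjusted p = 0.615). Without the mTEChi library of the mTEClo pair Gabra4 was called lower (adjusted p = 0.0131), and without the 0 h library Grin2d was.

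Markers of other cell types differed in the same pair, where 21.1% of all entries were at least 3-fold higher in WT and 2.03% lower. At least 3-fold higher in WT were 9 of 10 tuft cell, 5 of 7 Schwann cell and glia, 5 of 8 dendritic cell and macrophage, 4 of 10 muscle, 3 of 10 neuron, 2 of 7 neuroendocrine, 2 of 5 endothelial and 1 of 7 thymocyte markers, and none of the mTEChi, mTEClo, epithelial or fibroblast lists. At least 3-fold lower were 1 muscle and 1 fibroblast marker. The summed tuft markers stood at 1005, 284 and 672 CPM in the untreated WT libraries and 216 in the Aire-KO-labelled library, and the summed neuron markers at 54.1, 69.3 and 70.7 against 18.0. None of these lists had a member at 0 reads in an untreated library. Their part in the receptor result was not tested, and fewer cells of a type and less RNA per cell cannot be told apart in such libraries.

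The partners of the receptors were followed in a list of 80 genes. In WT, 32 of them were at least 3-fold higher than in the Aire-KO-labelled library and 4 lower, with a median of 1.54-fold. Over all entries 21.1% were at least 3-fold higher and 2.03% lower, which the counts below are to be read against. Genes that make, take up or break down transmitters gave 20 of 34 higher (median 5.47-fold), whereas receptor scaffolds, auxiliary subunits and chaperones gave 9 of 35 higher and 3 lower (median 1.04-fold). Th, the enzyme that makes the precursor of dopamine, had 769 normalised counts against 9.25, an 83.1-fold difference. The GABA transporter gene Slc6a13 (39.4-fold), the dopamine transporter gene Slc6a3 (29.1-fold), the glutamate transporter gene Slc1a1 (26.5-fold), and Slurp1 (27.1-fold) and Lynx1 (19.2-fold), which encode proteins that bind nicotinic receptors, were also higher in WT. The glutamate transporter gene Slc1a3 stood at 0.265, and the AMPA auxiliary subunits Cacng8 and Shisa9 at 0.275 and 0.315. Genes of the neuromuscular junction gave 2 of 7 higher and receptors related to the families described 1 of 4.

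Fewer receptor genes stood apart between mTEChi and mTEClo than in the Aire pair, with the largest folds in Chrna5 and Grin2c. All 88 members were measured. At least 3-fold higher in mTEChi were 25 (28.4%, against 11.8% of 29212 entries), and 4 were at least 3-fold lower (4.55%, against 12.8%). A further 41 lay within 2-fold (61.1% of entries) and 18 in between, and the median was 1.47-fold over members and 1.01-fold over all entries. The interval lay wholly past 3-fold for 19 of the 25 and for all 4 lower members. By level, 12 of 22 members with 1000 or more summed counts were at least 3-fold higher in mTEChi, against 9.19% of entries, but 11 of 57 members between 100 and 1000 counts, against 20.8%. Between 10 and 100 counts it was 2 of 9 members, against 7.88%. The larger share was among the abundant members. All 4 lower members lay between 100 and 1000 counts, where 10.7% of entries were lower. Between 10 and 100 counts 0 of 9 members and 46.1% of entries were lower, so the low share of lower members goes with their level.

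**Figure D3:**
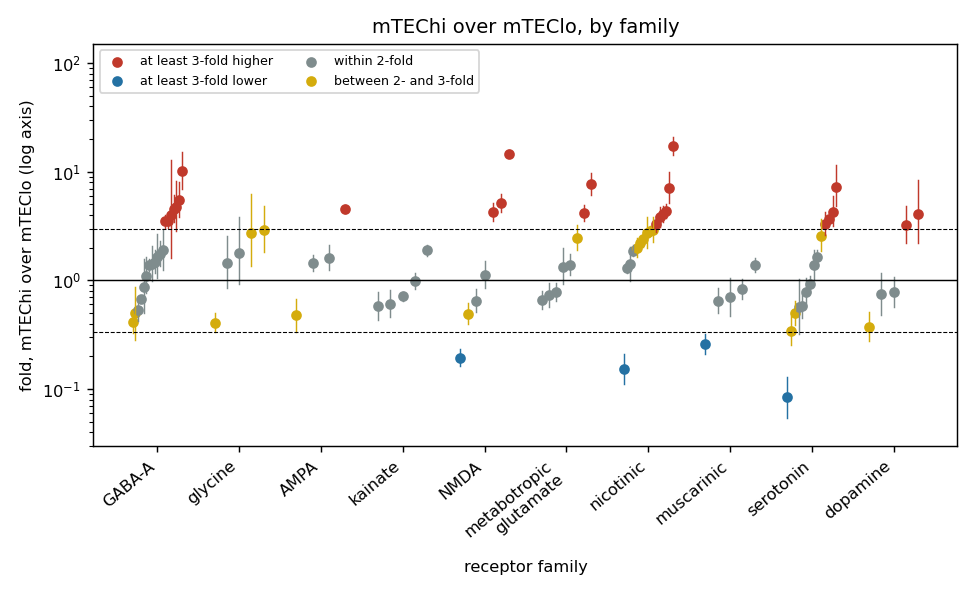
Fold of normalised counts in mTEChi over mTEClo (log axis) for the 88 members by receptor family; points are colored by class, vertical lines are exact 95% counting intervals and dashed lines mark 3-fold. GABA-A and nicotinic receptors have the most genes above 3-fold, 7 and 6, and kainate, muscarinic and glycine receptors have none.

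By family, 7 of 19 GABA-A, 6 of 16 nicotinic, 4 of 14 serotonin, 3 of 7 NMDA, 2 of 8 metabotropic glutamate, 2 of 5 dopamine and 1 of 4 AMPA receptor genes were at least 3-fold higher in mTEChi. The nicotinic family had the highest median, 2.80-fold, and the kainate and muscarinic families medians of 0.712 and 0.696. Chrna5 had the largest fold, with 5096 reads in mTEChi and 107 in mTEClo (17.2-fold, 14.2 to 21.0). It was at 10.4 RPKM in that mTEChi library, 7.93 and 7.60 in the other untreated WT libraries, and 0.620 in mTEClo. Grin2c followed with 25806 reads against 634 (14.7-fold, 13.6 to 15.9), at 2.05 RPKM in mTEClo. For both genes every mTEChi library lay above mTEClo, the Aire-KO-labelled library included.

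Gabra5 was 10.1-fold higher in mTEChi (6.92 to 15.3, 782 reads against 28), and Grm4, a metabotropic glutamate receptor, 7.63-fold (6.11 to 9.66, 1712 against 81). Htr2c, a serotonin receptor of the choroid plexus and brain, was 7.25-fold higher (4.82 to 11.4), Chrne 7.03-fold (5.13 to 9.87), Gabra4 5.44-fold (3.80 to 8.04) and Grin2d 5.13-fold (4.29 to 6.17). Gabrg3, a GABA-A gamma subunit, stood at 4.69-fold, Gria3 and Gabrr1 at 4.56-fold and Chrnb4 at 4.35-fold. Htr7 was 3.68-fold higher in mTEChi (3.54 to 3.82) with 2946 reads in mTEClo, where at 15.2 RPKM it was exceeded among the members only by Gabrp. Gabrp had 6935 reads in mTEChi and 3715 in mTEClo and was 1.48-fold lower in mTEChi (1.42 to 1.54).

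The other subunits of the muscle receptor were between 1.31- and 2.91-fold higher in mTEChi. Chrna1 stood at 1.88-fold (1.68 to 2.10), Chrnb1 at 1.31-fold (1.18 to 1.46), Chrnd at 2.01-fold (1.65 to 2.46) and Chrng at 2.91-fold (2.27 to 3.79). All 5 subunits had reads in all 5 untreated libraries. In mTEClo they ranged from 0.409 RPKM for Chrne to 3.22 for Chrnb1.

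Members lower in mTEChi were Htr1f, a serotonin receptor (27 reads against 115, 11.8-fold lower, 7.70 to 18.7), Chrnb3, a nicotinic subunit (59 against 139, 6.52-fold, 4.78 to 9.0), the NMDA subunit Grin2b (199 against 369, 5.13-fold, 4.31 to 6.13) and the muscarinic receptor Chrm1 (146 against 203, 3.85-fold, 3.10 to 4.80). Their levels in mTEClo were 0.727, 0.485, 0.780 and 0.512 RPKM. The upper quartile of the olfactory receptor entries was 0.349 RPKM in mTEClo and at most 0.0819 in the other untreated libraries, and 31 of the 88 members were at or below it in mTEClo, while these 4 were above it. Of the 57 members above it, 18 were at least 3-fold higher in mTEChi and 4 lower. What put reads on olfactory receptor entries was not tested, and the levels of low members in mTEClo are given with that limit.

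The 3 untreated WT mTEChi libraries were also set against mTEClo with edgeR over 24687 entries. The mTEChi library of the mTEClo pair shares its thymi with mTEClo per the methods, which the fit does not take into account. This called 3 of 88 members, Chrna5 (log2 difference 3.80, SE 0.63, adjusted p = 0.0371) and Grin2c (3.88, SE 0.68, adjusted p = 0.0371) as higher in mTEChi and Grin2b (-2.75, SE 0.52, adjusted p = 0.0405) as lower. Over all entries 1.92% were called higher and 1.45% lower. The calls depended on the mTEChi library of the same pair, since without it 0 members and 0 of 24473 entries passed by edgeR. In that fit 19 members and 3473 entries were at an unadjusted p under 0.05. Without the 0 h library 10 members passed (12.4% of entries), and DESeq2 on all libraries called 15 (11.2% of entries). Chrne (2.83, adjusted p = 0.0794) and Grin2d (2.32, adjusted p = 0.0805) missed the threshold.

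Markers of other cells moved with this contrast too, where 11.8% of all entries were at least 3-fold higher in mTEChi and 12.8% lower. Of the tuft list 9 of 10 and of the fibroblast list 6 of 7 were at least 3-fold lower in mTEChi, as were 3 of 5 endothelial markers, whereas 4 of 8 dendritic cell and macrophage, 4 of 10 neuron and 4 of 10 muscle markers were at least 3-fold higher. The mTEClo list gave 4 of 6 lower in mTEChi, the neuroendocrine list 2 of 7 lower and 1 higher, and the thymocyte and the glial list 1 of 7 higher each. Summed fibroblast markers were at 1105 CPM in mTEClo and 101 to 212 in the untreated WT mTEChi libraries. Their part in the receptor values was not tested. Of the 80 partner genes, 24 were at least 3-fold higher in mTEChi and 6 lower, against 11.8% and 12.8% of all entries. Cacng8, which was lower in WT in the Aire pair, had 711 normalised counts against 16.6 (42.7-fold), and Th was 15.4-fold higher. The vesicular transporter genes Slc18a2 for monoamines (11.7-fold) and Slc17a8 for glutamate (2053 normalised counts against 205), Tph1, an enzyme of serotonin synthesis (9.62-fold), and Slc6a3 (8.78-fold) were higher as well. The synaptic adhesion gene Nlgn2 stood at 0.0677, Agrn, which clusters receptors at the neuromuscular junction, at 0.211, the acetylcholine synthesis gene Chat, also a tuft marker here, at 0.236, and the scaffold Shank1 at 0.289.

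The members could be placed by both contrasts, which share no library. At least 3-fold higher in WT and at least 3-fold higher in mTEChi were 8 genes (17.4% of the 46 and 32% of the 25), namely Chrna2, Chrna4, Drd4, Gabra2, Gabra5, Gabrg3, Gabrr1 and Htr3a. In the Aire pair the interval reached below 3-fold for Gabra2 (8 reads against 2, 0.933 to 45.2) and Gabrg3 (2.05 to 5.40). In the mTEClo pair it did so for Chrna4, Drd4, Gabra2, Gabrg3 and Htr3a. Over the 26706 entries measured in both pairs, 1551 were higher in both, or 27.5% of the 5636 higher in WT and 45.9% of the 3382 higher in mTEChi, so both of the members' shares were below those of all entries. A further 25 of the 46 (54.3%) lay within 2-fold between mTEChi and mTEClo, against 43.6% of all entries higher in WT. All 4 genes lower in mTEChi, Chrm1, Chrnb3, Grin2b and Htr1f, were among the 46 (8.70% of them), where 614 of all 2088 entries lower in mTEChi were higher in WT (29.4%, and 10.9% of the entries higher in WT). In the Aire pair the interval of Chrm1 (2.94 to 7.92) and of Htr1f (31 reads against 12, 1.51 to 6.46) reached below 3-fold. Gabra4 and Grin2d were lower in WT and higher in mTEChi, as were 138 of the 528 entries lower in WT (26.1%). Of the 25 members higher in mTEChi, 10 (40%) lay within 2-fold in the Aire pair, against 34.5% of all entries higher in mTEChi. These shares are a description with no test.

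**Figure D4:**
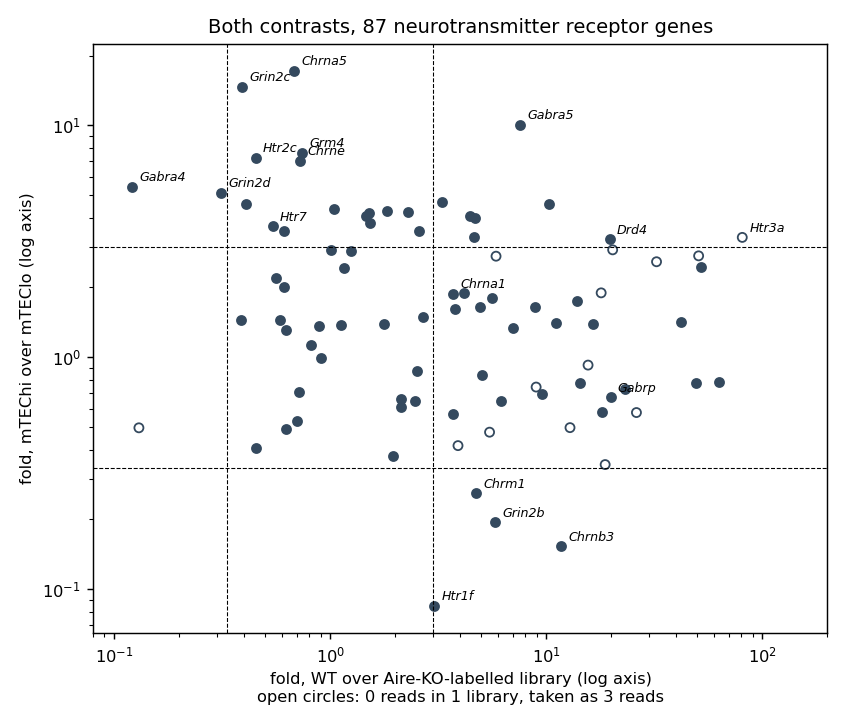
Fold in WT over the Aire-KO-labelled library (x, log axis) against fold in mTEChi over mTEClo (y, log axis) for the 87 members measured in both pairs, 1 point per gene; dashed lines mark 3-fold and open circles a library at 0 reads taken as 3 reads. Grin2c and Chrna5 sit high at the left of 1, Gabra5 is high in both, and Chrm1, Grin2b, Chrnb3 and Htr1f lie at the lower right.

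Under actinomycin D few receptor genes could be followed, since most had no read in the 6 h and 12 h libraries. Whether depth or treatment lay behind this was not tested. A read was found for 87 members after 1.5 h, 63 after 3 h, 35 after 6 h and 41 after 12 h, and 28 had a read in all 4 treated libraries. Htr5a had none in any of them. The loss depended on level. Of 32 members with 1 to under 100 reads at 0 h, 30 had no read at 6 h, against 88.5% of all entries in that range, and of 34 members with 100 to under 500 reads 20 had none, against 51.0%. Of 22 members with 500 or more reads, 3 had none at 6 h, Chrna1, Chrna9 and Chrnb2, against 7.07% of entries.

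For the 87 members that reached 10 reads in the 5 libraries combined, the median log2 change from 1.5 h to 3 h was -0.05, against -0.06 over 23850 entries. From 1.5 h to 6 h it was -4.29 against -0.36, and from 1.5 h to 12 h -3.16 against -0.43. The values at 6 h and 12 h rest on members without reads and on the 0.5 reads added to each value. All changes and slopes here are in shares of the library total. A flat or rising value means a kept or larger share, and no value gives the amount per cell. With 0 taken as 3 reads, the change to 6 h was -0.83 over the members and -0.20 over all entries. Over the 35 members with 50 or more reads at 1.5 h it was -0.16, and -0.16 also over all entries of that depth. At 6 h 55 members were at least 2-fold lower and 14 at least 2-fold higher than at 1.5 h, where 36.7% and 12.5% of all entries were. A slope over hours, fitted with edgeR on the 4 treated libraries, was called for 0 of 53 members and 0 of 20652 entries, with 0 members and 1896 entries at an unadjusted p under 0.05. DESeq2 called 0 members and 400 entries (1.65%) and gave no adjusted p for 84 members. In log2 per hour, the fitted slopes were -0.08 for Grin2c (SE 0.05), -0.11 for Gabrp (SE 0.06) and 0.00 for Htr7 (SE 0.04), with adjusted p of 0.679, 0.644 and 0.999 by edgeR.

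**Figure D5:**
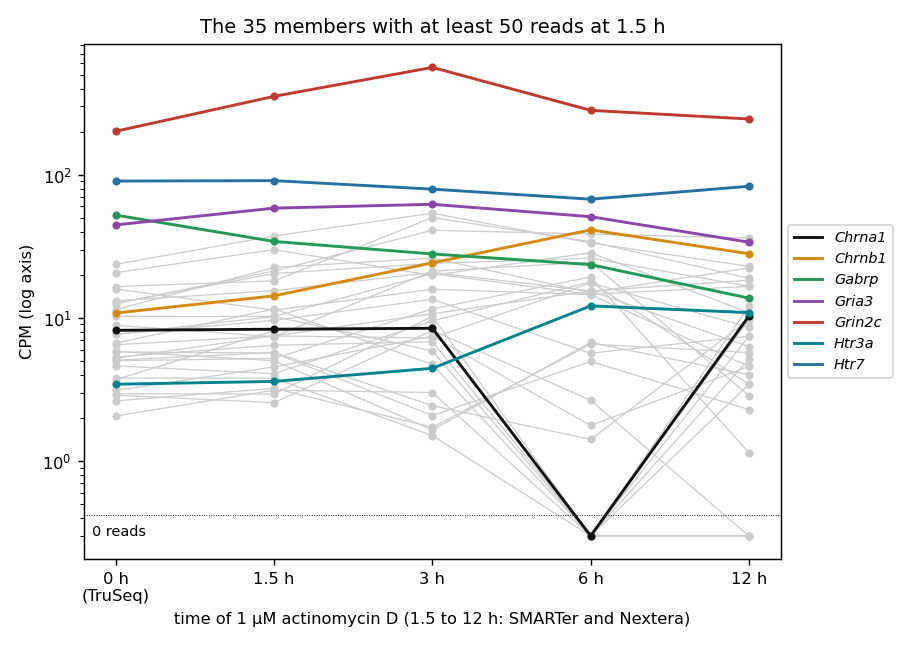
CPM (log axis) of the 35 members with at least 50 reads at 1.5 h, over the time of actinomycin D, 1 line per gene and 1 library per time; 7 genes are colored, and points under the dotted line had 0 reads. Grin2c is the highest at every time, Gabrp is lower at each later time, and Chrna1 is at 0 reads at 6 h but not at 12 h.

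Among the well measured members, Grin2c had 201, 353, 562, 282 and 245 CPM in the order of the times from 0 h on. Htr7 was at 90.3, 90.9, 79.3, 67.5 and 83.0 CPM, and Gria3 at 44.6, 58.4, 62.1, 50.9 and 33.8. Gabrp was the one of these 4 that was lower at every later time, at 52.2, 34.2, 28.0, 23.5 and 13.7 CPM, the last from 24 reads. Chrnb1 was at 10.8, 14.2, 24.2, 41.2 and 28.1, and Htr3a, which had no read in the Aire-KO-labelled library, at 3.44, 3.60, 4.44, 12.1 and 10.9. Such a rise is in share of the library and not in amount. The values of Chrna1 were 8.19, 8.33, 8.46, 0 and 10.3 CPM, and Chrna3, Chrna9, Gria1 and Gabra5 likewise had 0 reads at 6 h and 9 to 21 reads at 12 h. These genes had at least 80 reads at 1.5 h. Among members of that depth at 1.5 h, a count of 0 occurred only in the 6 h library, although the 12 h library had fewer reads in total. Amplified reads are not independent molecules, so read counts alone understate the error in the treated libraries.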

How the data were processed

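The deposited values for the actinomycin D series are counts of reads per RefSeq entry, which the authors had not normalised. For the 2 pairs, the authors divided counts by a DESeq size factor, so the deposited signal is a normalised count, and 100% of values were whole reads times 1 step per library within 0.1 reads. The authors trimmed reads, aligned them to mm9 with Bowtie 1.0.0 and counted those lying within RefSeq exons with bedtools, without strand. The deposited fold (ratio) columns, log2 folds and p-values by the authors compare 1 library with 1 and were not used. The 2 value columns of the Aire pair are not named by sample, and the authors' code, which reads WT as the numerator of the fold, decided which is which.

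The members and the lists of partner and marker genes were chosen with earlier results of these data known. For each symbol the entry with the highest summed normalised counts in the Aire pair was used throughout, which for 3 members is not the highest entry of the mTEClo pair. Folds within a pair used normalised counts, with at least 10 summed over both libraries, classes at 3-fold and 2-fold, 0 taken as 3 reads, and exact 95% intervals for the ratio of 2 Poisson counts, which cover counting error only. Libraries were never replicated within a pair. Per the methods, paired reads were trimmed and joined into 1 set of single reads, so both ends of a fragment could be counted. The intervals of both pairs take reads as independent and are too narrow for this reason. Recovered whole reads of 4 libraries each (3 untreated WT mTEChi with the Aire-KO-labelled library or with mTEClo, and the 4 treated ones for a slope over hours) went into edgeR 4.0.16 quasi-likelihood fits with TMM scaling and its expression filter, with DESeq2 1.42.0 as an alternative, both with Benjamini-Hochberg adjustment at 0.05 over all entries. The sources used here do not say whether the WT libraries came from separate mice, and p-values measure only the spread between these samples, which may be technical. The changes under actinomycin D used log2 CPM with 0.5 reads added, scaled to library size, over entries with at least 10 reads in 5 libraries. RPKM used library totals over the 25401 entries common to all files and the deposited entry length. The interval and the fits were tested on simulated data with known answers.

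Named were the leading gene of each family in each pair, the 12 largest folds per direction past 3-fold among members with 50 or more normalised counts in the higher library, every member called in a fit, the 5 muscle receptor subunits, members with 50 or more reads at 1.5 h, and partner genes past 3-fold with 500 or more normalised counts in the higher library, up to 6 per direction. The alternatives tried were another scaling, other minima and fold limits, another entry per symbol, another tool, and leaving out 1 library at a time. Some members are counted here but not reported by name.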

Additional observations from a re-analysis of the deposited data

How the results depend on the processing

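No paired analysis was possible because each group holds 1 library. Of 49 alternatives, 41 kept the value as reported within 1.5 times for counts or within the interval of the median, 8 moved it and 0 turned its direction. With a 2-fold limit, 8 members in place of 3 were lower in WT than in the Aire-KO-labelled library, and 12 in place of 4 were lower in mTEChi than in mTEClo. With DESeq2, 39 members in place of 23 were called between the untreated WT libraries and the Aire-KO-labelled library, and 15 in place of 3 between those libraries and mTEClo. Leaving out 1 WT library at a time gave 20 to 31 and 0 to 10 calls in these fits, and the lowest count, 0, came without the mTEChi library of the mTEClo pair. Over all entries the shares called were 7.64% to 12.6% and 0 to 12.4%. The slope over hours gave 0 members by edgeR under every alternative, and 0 by DESeq2, which gave no adjusted p for 84 members. Without the 6 h library 1874 of 20452 entries passed by edgeR, with 7 members and 4859 entries at an unadjusted p under 0.05. The median change of members from 1.5 h to 6 h, -4.29 on the log2 scale, was -0.83 with 0 taken as 3 reads and -0.16 over members with at least 50 reads at 1.5 h. Both alternatives were chosen after seeing the data. Equal library totals moved all log2 folds by 0.23 in the Aire pair and 0.07 in the mTEClo pair. Depth limits the treated libraries most, where 3 reads were 0.143 to 1.73 CPM.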
